A study of Mus musculus with 12 samples.

Results

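The integrated stress response and the unfolded protein response are followed here through 10 of their genes, in mature mouse white adipocytes that had been given a β-adrenergic agonist, lipase inhibitors, or both. They are Atf4, Ddit3, Trib3, Asns, Chac1, Sesn2, Ern1, Xbp1, Atf6 and Herpud1, taken by symbol from a count table of 20295 genes, and 10 of 10 were among the 13543 genes with enough counts to test. The cells were epididymal white adipocytes (eWAs) of lean male C57/BL6J mice, released with collagenase, floated, and embedded at 50000 cells per well in a hydrogel for 2 days. The 4 groups, with 3 libraries each, were vehicle (DMSO), isoproterenol for 3 h (ISO), inhibitors of lipases (Lip) and both (Lip+ISO). The study's methods name the inhibitors as Atglistatin, against ATGL, and CAY10499, against HSL and MGL, and describe 3 independent experiments. Its figure legend has the inhibitors given before the stimulus. No group carried a transgene or a deletion. One legend of the study names another lipolysis activator, SR-3420, as the stimulus of white cells, whereas the sample titles and the results text name ISO, and ISO is used here.

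Cells slow protein synthesis and switch on repair genes when proteins misfold in the endoplasmic reticulum (ER), when amino acids run short or when mitochondria fail. Kinases such as PERK and GCN2 phosphorylate the initiation factor eIF2, which lowers translation in general but raises that of ATF4, a transcription factor whose targets include Ddit3 (CHOP), Trib3, Asns, Chac1 and Sesn2. In the ER, IRE1 (Ern1) splices Xbp1 mRNA into the form that encodes an active factor, and ATF6 is cut from the membrane to act in the nucleus. Much of this control acts on translation, splicing and cleavage, which a count of reads per gene does not measure. In adipocytes, isoproterenol raises cAMP, which drives both lipolysis and transcription.

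Promoters are shown for 4 of the 10 genes because these hold, within 250 bases before to 50 bases after the start of transcription in mm9, the letters TGATGNAA on either strand. These are the core of the C/EBP-ATF response element, the element through which ATF4 acts. Each line runs 5′ to 3′ in the direction of the gene, the capitals mark the match, and a match on the opposite strand reads TTNCATCA.

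Trib3 (chr2:152169747-152170046, minus strand): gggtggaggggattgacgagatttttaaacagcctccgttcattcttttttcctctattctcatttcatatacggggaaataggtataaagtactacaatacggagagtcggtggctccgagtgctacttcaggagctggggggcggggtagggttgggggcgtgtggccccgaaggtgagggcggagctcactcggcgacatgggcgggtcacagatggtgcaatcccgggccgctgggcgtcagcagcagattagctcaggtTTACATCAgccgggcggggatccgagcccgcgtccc
Asns (chr6:7643133-7643432, minus strand): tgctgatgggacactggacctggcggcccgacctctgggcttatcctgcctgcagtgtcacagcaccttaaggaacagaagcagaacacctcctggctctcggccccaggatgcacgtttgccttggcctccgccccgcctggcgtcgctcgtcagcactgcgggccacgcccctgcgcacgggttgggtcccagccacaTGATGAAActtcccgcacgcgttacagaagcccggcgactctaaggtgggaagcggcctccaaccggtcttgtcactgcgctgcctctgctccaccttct
Chac1 (chr2:119176728-119177027, plus strand): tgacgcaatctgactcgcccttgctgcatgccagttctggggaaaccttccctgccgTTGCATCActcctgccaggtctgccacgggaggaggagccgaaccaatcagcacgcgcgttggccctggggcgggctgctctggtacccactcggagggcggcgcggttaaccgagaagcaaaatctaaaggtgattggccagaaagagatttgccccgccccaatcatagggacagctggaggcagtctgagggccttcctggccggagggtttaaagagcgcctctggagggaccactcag
Herpud1 (chr8:96910150-96910449, plus strand): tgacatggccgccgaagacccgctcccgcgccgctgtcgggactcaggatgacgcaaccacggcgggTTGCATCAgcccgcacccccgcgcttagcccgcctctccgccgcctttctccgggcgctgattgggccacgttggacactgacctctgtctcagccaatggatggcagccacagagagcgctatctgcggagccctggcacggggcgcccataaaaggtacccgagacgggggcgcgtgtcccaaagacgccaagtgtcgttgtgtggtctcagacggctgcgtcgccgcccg

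Counted from the start, the match lay at bases 15 to 22 of the Trib3 transcript on the opposite strand. It lay at -50 to -43 in Asns on the gene's own strand, at -193 to -186 in Chac1 and at -183 to -176 in Herpud1, both on the opposite strand. Among 20295 windows of the same length, 655 held these letters (3.23%). None of the 10 held the cAMP response element TGACGTCA, which 2.53% of windows held, and none held TGACGTGG, a core of the element bound by XBP1 and ATF6 (0.734%). The form of the ER stress element searched, CCAAT and CCACG with 9 bases between, was in 0 of the 10 and in 0.138% of windows. Other forms and spacings were not searched, so this count does not show that the genes lack such an element. The Herpud1 window above holds attgggccacg, in which CCAAT on the opposite strand stands close to CCACG. A match describes letters only. Of the 4 genes shown, Trib3 and Chac1 were higher with ISO, and Asns and Herpud1 did not pass the test there, as the values below give.

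Library totals ran from 22632220 to 43707557 counts. Adipocyte markers such as Adipoq and Plin1 summed to 27500 to 41300 counts scaled to library size (CPM, with totals corrected by edgeR's TMM factors) in all 12 libraries. Markers of macrophages summed to 53.9 to 68.6 CPM with DMSO, 113 to 169 with ISO, 58.6 to 63.1 with Lip and 73.7 to 124 with Lip+ISO, and 6 of 10 tested were higher with ISO than with DMSO. Of 10 fibroblast and progenitor markers, 4 were higher with ISO, as were 1 of 10 endothelial and 1 of 8 mesothelial markers, and no listed marker was at 0 in all libraries. Over all tested genes 12.3% were higher and 13.9% lower with ISO, so the endothelial and mesothelial counts were near that share. Of 10 adipocyte markers, 2 were lower with ISO (median -0.20). With Lip+ISO against ISO, 3 of 10 fibroblast and 1 of 10 endothelial markers were lower, 0 of 10 macrophage and 0 of 8 mesothelial markers were called, and the medians of these 4 lists ran from -0.79 to -0.43. For adipocyte markers, 1 was higher and 1 lower (median 0.01). Over all tested genes, 4.36% were higher and 4.59% lower with Lip+ISO against ISO. RNA of other cells was therefore present, and among these lists the macrophage and fibroblast markers were called higher with ISO beyond that share. The part of such RNA in the differences below was not tested. In such bulk samples, fewer cells of a type and less RNA per cell cannot be told apart. Of the genes that follow the treatments, the cAMP target Crem was higher with ISO (log2 fold change 2.85 ± 0.10, SE) and so was Ppargc1a, a coactivator of oxidative metabolism (3.79 ± 0.20). Pdk4, a kinase gene that fatty acids induce through PPARs, was higher with ISO (1.06 ± 0.21) and was lower with Lip+ISO than with ISO (-4.04 ± 0.23). The edgeR adjusted p of these values was 0.002405 or less.

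In vehicle, the levels per kilobase of counted exon spanned a wide range. Atf4 stood highest at 159 ± 20.9 CPM per kb (SD, n = 3) and was within its spread of Xbp1 at 146 ± 8.0. Ddit3 (92.0 ± 24.8), Asns (67.1 ± 2.94) and Herpud1 (60.3 ± 10.5) followed, each overlapping the next. Chac1 (48.8 ± 2.30), Sesn2 (46.3 ± 6.0) and Trib3 (45.9 ± 0.463) could not be ordered within their spread. The sensors came last, with Atf6 at 13.01 ± 1.17 CPM per kb and Ern1 at 5.83 ± 0.633, and their libraries did not overlap. The order changed with treatment. With Lip+ISO, Trib3 stood at 189 ± 24.7 CPM per kb, near Xbp1 at 168 ± 37.3 and below Atf4 at 238 ± 15.8.

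**Figure D1:**
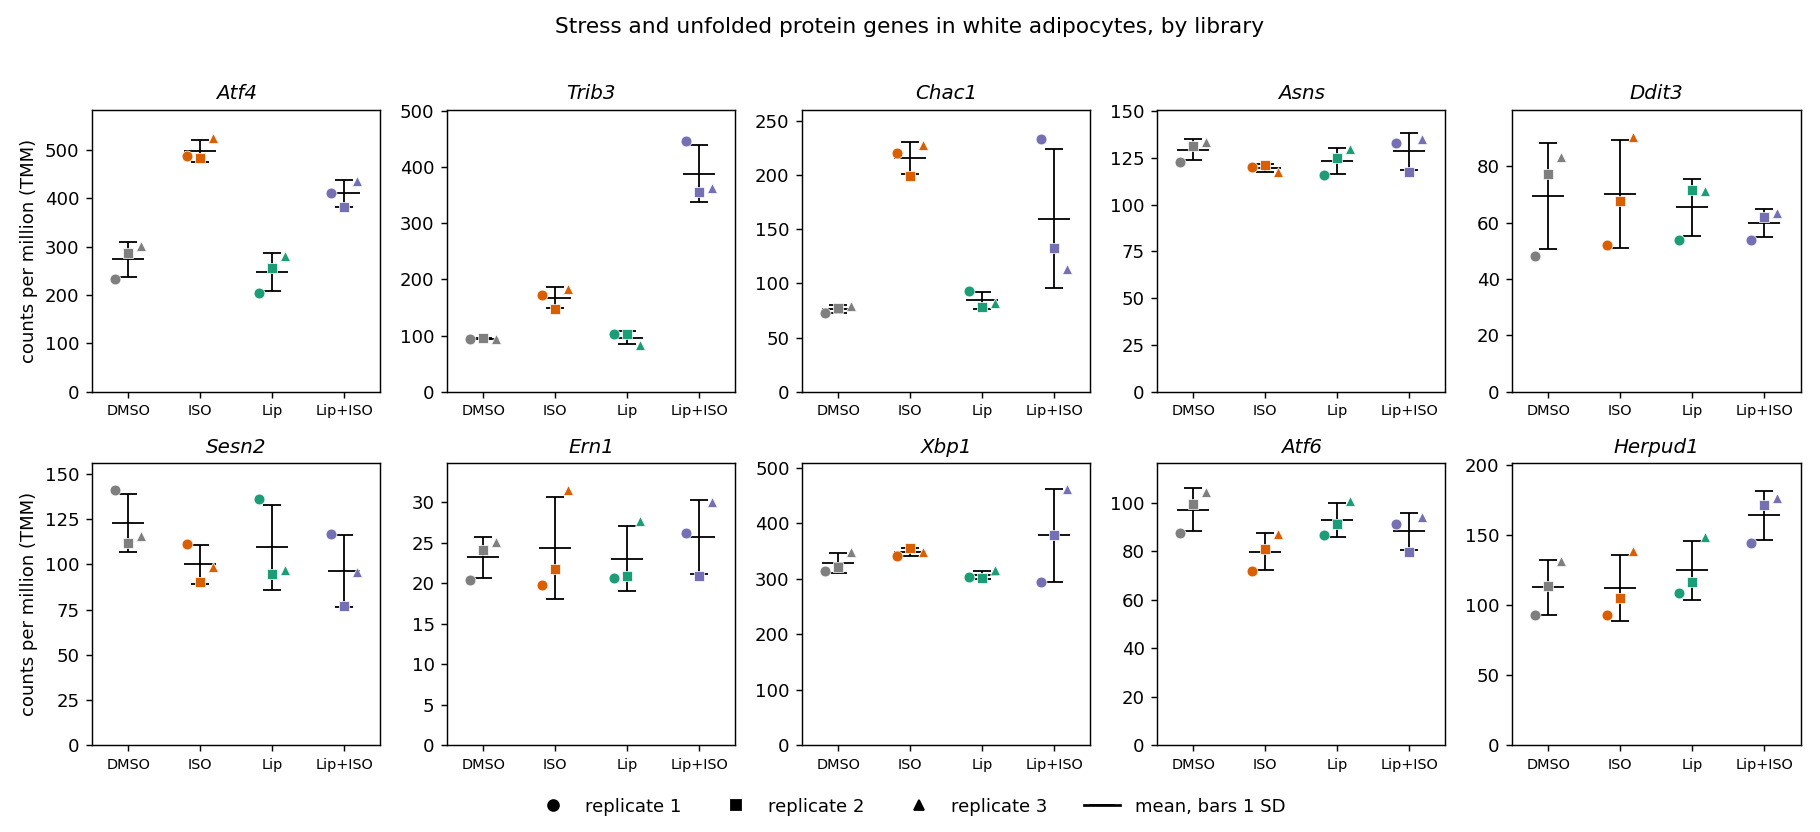
CPM (TMM-scaled) of the 10 genes in each of 12 libraries, with 1 panel per gene and each vertical axis starting at 0. Points are libraries, the symbol gives the replicate number, and black bars are the mean and 1 SD (n = 3). Atf4, Trib3 and Chac1 stand higher in both groups that received ISO, Trib3 stands highest with Lip+ISO (355 to 446 CPM), and the 3 Lip+ISO libraries of Chac1 spread from 114 to 233 CPM.

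The first comparison asks which of these genes answer to the agonist when lipases can work. Atf4, Trib3 and Chac1 were higher with ISO than with DMSO, and the other 7 did not pass the test. A gene is called here at an edgeR adjusted p at or under 0.05, whatever the size of the change. By that rule 12.3% of all tested genes were higher and 13.9% lower in this comparison, against 3 and 0 of the 10. Scaled by library totals alone, the counts over all genes were 1365 higher and 2329 lower in place of 1670 and 1878, and 4 of the 10 were called, these 3 and Atf6 as lower. With the replicate number fitted as a block, 5 of the 10 were called, with Atf6 and Sesn2 added as lower. In the fit without a block, the median log2 fold change was 0.04 over the 10 and 0.00 over all genes (0.001761).

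Atf4, which encodes the transcription factor at the center of the response, lies on chromosome 15 at 80085614 to 80087975 (mm9, plus strand). It read 233, 288 and 302 CPM with DMSO and 487, 483 and 524 CPM with ISO. The ISO libraries were all above the DMSO libraries, by 0.86 ± 0.12 on the log2 scale or 1.82-fold (edgeR adjusted p = 0.0002654). Trib3 encodes a pseudokinase that binds AKT and CHOP, and lies on chromosome 2 at 152163161 to 152169796 on the minus strand. Its DMSO libraries lay close together at 94.2, 95.1 and 93.2 CPM, and its ISO libraries read 171, 147 and 184 CPM. Again no library overlapped between the groups, and the log2 fold change was 0.83 ± 0.11 or 1.78-fold (edgeR adjusted p = 0.0002133). Chac1, whose product breaks down glutathione, lies on the same chromosome at 119176978 to 119180062 on the plus strand. It read 72.5, 77.6 and 79.5 CPM with DMSO against 220, 199 and 228 CPM with ISO. This was the widest of the 10 differences between these groups, at 1.495 ± 0.20 or 2.82-fold (edgeR adjusted p = 0.0001925).

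Other products or partners of the ATF4 arm were not called. Asns, the asparagine synthetase (chromosome 6, 7625171 to 7643182), read 123, 132 and 134 CPM with DMSO and 120, 121 and 117 CPM with ISO. All ISO libraries lay below all DMSO libraries, but the gap was small at -0.11 ± 0.08 and the 95% interval ran from -0.28 to 0.05 (edgeR adjusted p = 0.2898). Ddit3, the gene of the proapoptotic factor CHOP (chromosome 10, 126727849 to 126733344), read 48.1, 77.2 and 83.1 CPM with DMSO and 52.2, 67.6 and 90.4 CPM with ISO. Its libraries overlapped wholly and its difference was 0.01 ± 0.21. The interval ran from -0.45 to 0.47, so changes within that range are not excluded. With the replicate block the difference was 0.02 ± 0.11. Ddit3 overlaps Mars on the opposite strand, and since counting by strand is not stated, reads of the pair cannot be told apart. Sesn2, a sestrin that restrains mTORC1 when leucine is short (chromosome 4, 132048722 to 132066371), read 141, 112 and 116 CPM with DMSO. It read 111, 90.1 and 98.5 CPM with ISO, with no overlap, and its difference of -0.30 ± 0.17 did not pass the test (edgeR adjusted p = 0.2069).

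The 2 other arms and Herpud1 were not called either. Ern1, the gene of the sensor IRE1 (chromosome 11, 106258934 to 106349110), read 20.3, 24.0 and 25.1 CPM with DMSO and 19.7, 21.8 and 31.5 CPM with ISO, a difference of 0.07 ± 0.19. Xbp1, the transcript that IRE1 splices (chromosome 11, 5420644 to 5425996), read 315, 321 and 348 CPM with DMSO and 340, 356 and 348 CPM with ISO, a difference of 0.09 ± 0.12. For both genes the groups overlapped, and the spliced and unspliced forms of Xbp1 are 1 count here. Atf6, the third sensor (chromosome 1, 172634588 to 172797902), read 87.5, 99.3 and 105 CPM with DMSO and 71.6, 80.7 and 87.0 CPM with ISO. All its ISO libraries lay lower, by -0.28 ± 0.10, and the edgeR adjusted p of 0.05429 lay just over the threshold. It was called lower with library totals alone (-0.32, edgeR adjusted p = 0.04716) and with no filter on low counts (-0.30, edgeR adjusted p = 0.04907). It was also called lower without DMSO replicate 1 (-0.36, adjusted p = 0.0398), ISO replicate 3 (-0.35, 0.04485), Lip replicate 3 (-0.29, 0.04771), Lip+ISO replicate 2 (-0.29, 0.04409) or Lip+ISO replicate 3 (-0.29, 0.04607). Herpud1, which helps to send ER proteins to degradation (chromosome 8, 96910400 to 96919258), read 92.8, 114 and 132 CPM with DMSO and 93.1, 105 and 138 CPM with ISO. These overlapped wholly, at -0.01 ± 0.17.

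The second comparison asks whether ISO acts on the same genes when lipases are inhibited, in 6 other libraries. It comes from the same fit, with a shared estimate of the spread. Libraries of the same number had correlated deviations across groups, so it is not an independent repeat. Atf4, Trib3 and Chac1 were again the genes called, each higher with Lip+ISO than with Lip, and 0 of the 10 were lower. Of all tested genes 11.5% were higher and 15.8% lower (1562 and 2140, and 1069 and 2968 with library totals alone, which shift the median of all genes by -0.11). The median log2 fold change was 0.23 over the 10 and 0.00 over all (-0.004072). Atf4 read 205, 257 and 281 CPM with Lip and 412, 383 and 437 CPM with Lip+ISO, a difference of 0.73 ± 0.12 (edgeR adjusted p = 0.0005957). Trib3 read 103, 103 and 83.4 CPM with Lip and 446, 355 and 363 CPM with Lip+ISO. That is 2.01 ± 0.12 on the log2 scale or 4.03-fold (edgeR adjusted p = 7.907e-08), with a wide gap between the groups. Chac1 read 93.2, 78.4 and 81.5 CPM with Lip and 233, 133 and 114 CPM with Lip+ISO, a difference of 0.92 ± 0.20 (edgeR adjusted p = 0.004062). The groups of Chac1 did not overlap, but replicate 1 of Lip+ISO stood far above the other 2, and without it the difference was 0.54 (edgeR adjusted p = 0.001717). The macrophage marker sum was also highest in that library of the 3, at 124 CPM against 95.4 and 73.7. The other marker sums were lowest in it: endothelial (102 against 299 and 229), fibroblast (532 against 770 and 615), mesothelial (45.6 against 64.6 and 58.4) and adipocyte (27500 against 32000 and 36500). The part of other cells in the Chac1 level was not tested.

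Among the genes not called in this comparison, Herpud1 read 109, 116 and 149 CPM with Lip and 144, 172 and 177 CPM with Lip+ISO. The groups overlapped by 1 pair of libraries and the difference was 0.40 ± 0.17 (edgeR adjusted p = 0.1033). Without Lip replicate 3 it was 0.54 and called (adjusted p = 0.04269). With the replicate number fitted as a block it was 0.41 and called (edgeR adjusted p = 0.0009925). Xbp1 read 303, 302 and 315 CPM with Lip and 294, 379 and 462 CPM with Lip+ISO, where the spread among the treated libraries was large. Its difference of 0.30 ± 0.12 was not called by edgeR (adjusted p = 0.09595) but was by DESeq2 (0.33, adjusted p = 0.04625). It was 0.45 by edgeR without Lip+ISO replicate 1 (adjusted p = 0.002868), and 0.29 with the block (0.04444). The other 5 genes (Ddit3, Asns, Ern1, Atf6 and Sesn2) lay between -0.18 and 0.16, and their libraries overlapped.

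**Figure D2:**
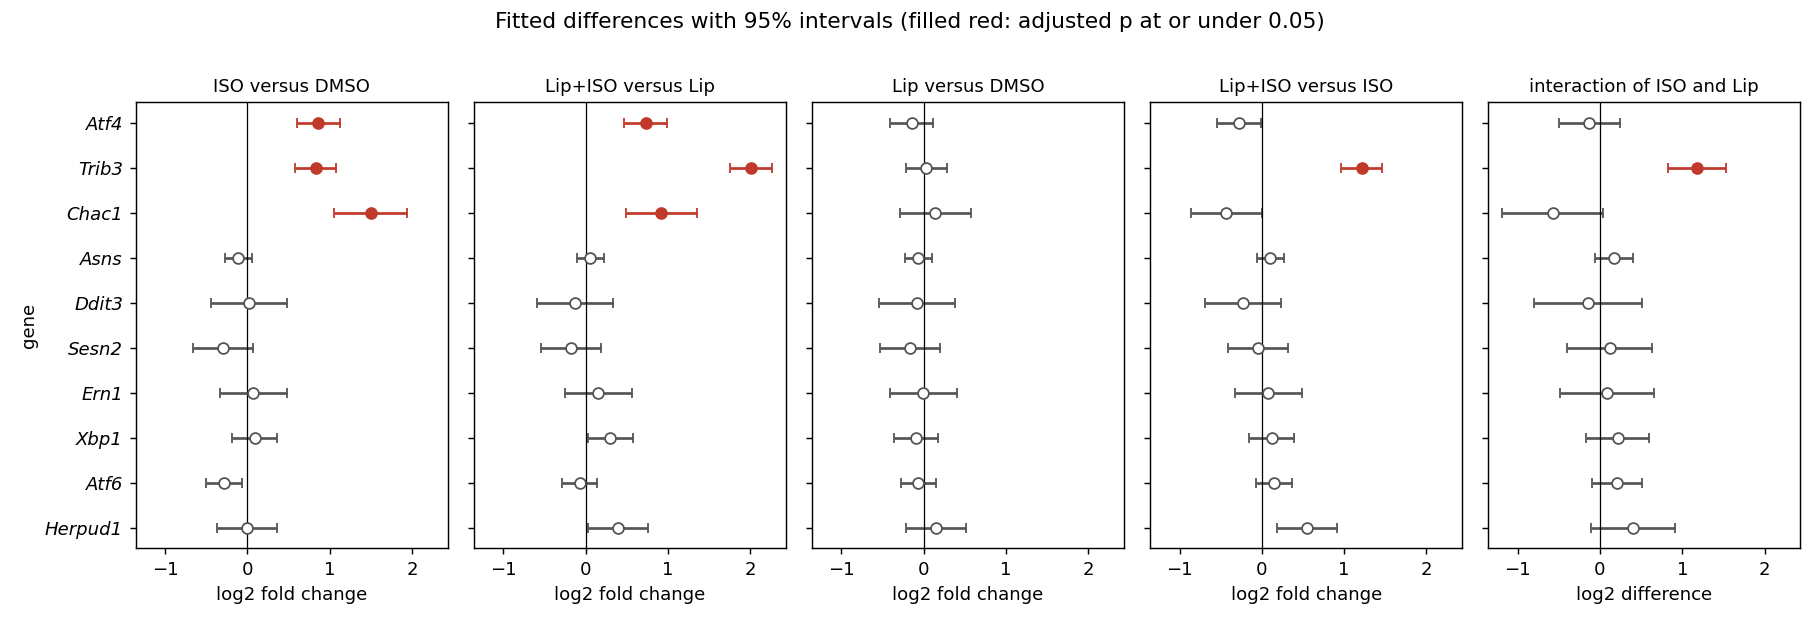
Fitted log2 differences (horizontal axis) of the 10 genes in the 5 comparisons, with 95% intervals from the edgeR fit to 12 libraries. Filled red points have an adjusted p at or under 0.05. Atf4, Trib3 and Chac1 are filled in both ISO panels, Trib3 alone is filled for Lip+ISO versus ISO (1.21) and for the interaction (1.18), and no point is filled for Lip versus DMSO.

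The inhibitors without agonist called 0 of the 10 genes. This was the comparison with the fewest calls in the table, with 0.00738% of genes higher and 0.0443% lower by edgeR, and 582 genes but 0 of the 10 at an unadjusted p under 0.05. The 10 log2 fold changes lay between -0.17 (Sesn2) and 0.15 (Herpud1), with a median of -0.07, and each gene's libraries overlapped. Chac1, at 0.14 ± 0.20, had a 95% interval from -0.29 to 0.57, and that of Trib3 ran from -0.21 to 0.28. DESeq2 likewise called 0 of the 10.

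The fourth comparison asks what the inhibitors change in cells that also received ISO. It uses the ISO and Lip+ISO libraries already described, so its values are not independent of those above. The markers of other cells had negative medians here, as given above, and their part in the values of this comparison and of the interaction was not tested. Trib3 was the gene called of the 10, and it was higher. Of all tested genes, 4.36% were higher and 4.59% lower. The 355 to 446 CPM of Trib3 with Lip+ISO lay above the 147 to 184 CPM with ISO, a difference of 1.21 ± 0.11 or 2.32-fold (edgeR adjusted p = 4.102e-05). Herpud1 had its values on the same side, at 144, 172 and 177 CPM with Lip+ISO above 93.1, 105 and 138 CPM with ISO. The groups did not overlap, and its difference of 0.55 ± 0.17 had an edgeR adjusted p of 0.06226 and a DESeq2 adjusted p of 0.01449. It was called by edgeR without ISO replicate 3 (0.73, adjusted p = 0.02811) or without Lip replicate 3 (0.55, 0.0476). The replicate block also called it (0.57, edgeR adjusted p = 0.0002978).

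Atf4 and Chac1 had values on the other side. Atf4 read 383 to 437 CPM with Lip+ISO, below the 483 to 524 CPM with ISO in every library, and its -0.28 ± 0.12 was not called (edgeR adjusted p = 0.1857). The replicate block called it lower (-0.28, edgeR adjusted p = 0.04577). Chac1 fitted at -0.43 ± 0.20 (edgeR adjusted p = 0.2071). Its replicate 1 with Lip+ISO, at 233 CPM, stood above the 199 to 228 CPM of the ISO libraries, and the other 2 stood below them. Without that library the difference was -0.81 and passed the test (edgeR adjusted p = 0.0005472). The remaining 6 genes lay between -0.23 (Ddit3) and 0.14 (Atf6), with overlapping libraries.

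The interaction tests whether the response to ISO itself differed with and without inhibitors. Trib3 was called among the 10, with a response larger by 1.18 ± 0.16 on the log2 scale when lipases were inhibited (edgeR adjusted p = 0.002734). Among all tested genes, 0.901% had a called positive and 0.724% a called negative interaction, a sign that does not give the size of the response. The Trib3 call held in each fit that left out 1 library. With replicate 2 left out of all 4 groups, the value was 1.20 and the adjusted p rose to 0.08045, and that fit called 6 genes higher and 9 lower in the whole table. The interaction of Chac1 was -0.57 ± 0.28 (edgeR adjusted p = 0.4032), and -0.95 without Lip+ISO replicate 1 (adjusted p = 0.003973). For Atf4 it was -0.13 ± 0.17 with an interval from -0.50 to 0.24, and for Herpud1 0.40 ± 0.24 with an interval from -0.11 to 0.92. The Herpud1 interaction was called with the replicate block (0.42, edgeR adjusted p = 0.03443). The other 6 lay between -0.15 (Ddit3) and 0.22 (Xbp1).

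The lists below are read against all tested genes. Of these, 12.3% were higher and 13.9% lower with ISO, and 11.5% and 15.8% with Lip+ISO against Lip. With Lip+ISO against ISO the shares were 4.36% and 4.59%. Around the 10 genes, other targets of ATF4 and of the integrated stress response were split in direction. Of 42 tested, 9 were higher and 4 lower with ISO than with DMSO, with a median log2 fold change of 0.14. With Lip+ISO against Lip, 12 were higher and 6 lower (9 and 8 with library totals alone), with a median of 0.18, against 0.00 over all genes in both. Cebpb, a bZIP partner of ATF4 (2.06 ± 0.18), Atf3, a stress-induced repressor (1.94 ± 0.27), and Gdf15, a stress hormone (1.69 ± 0.32), had the largest called changes with ISO (edgeR adjusted p = 0.002106 or less). With Lip+ISO against Lip the largest were Cth, the cystathionine gamma-lyase (1.67 ± 0.10), Atf3 (1.62 ± 0.27) and Ddit4, which restrains mTORC1 (1.55 ± 0.17). Beside Trib3 in the interaction, 2 of the 42 were called, Arrdc3, an arrestin-like protein that binds β-adrenergic receptors (1.42 ± 0.17), and Cth (1.09 ± 0.13). Arrdc3 read 31.4 to 37.1 CPM with ISO and 101 to 129 CPM with Lip+ISO. Lip+ISO against ISO called 3 of the 42 higher and 2 lower, and 3 and 0 without ISO replicate 2 or 3. Arrdc3 (1.72 ± 0.12) and Slc7a5, a carrier of large neutral amino acids (0.88 ± 0.15), were higher, and Fgf21, a metabolic hormone, was lower (-1.59 ± 0.45, edgeR adjusted p = 0.04635). The Fgf21 call was lost in 7 of the 12 fits that left out 1 library: DMSO 2, ISO 2, ISO 3, Lip 2 or any of the Lip+ISO libraries, with adjusted p up to 0.1787.

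The next list of 18 genes held eIF2 kinases, subunits of eIF2 and of its exchange factor eIF2B, partners of the eIF2 phosphatase, and regulators. Of the 18, 4 were higher and 2 lower with ISO, against 12.3% and 13.9% of all tested genes. With Lip+ISO against Lip, 6 were higher and 1 lower, against 11.5% and 15.8%. The medians were 0.04 and 0.14. With library totals alone the counts were 3 and 3 in both comparisons, and 4 and 1 with ISO by RLE factors. Without DMSO replicate 3 or ISO replicate 2 the counts with ISO were 3 and 0, and those with Lip+ISO against Lip were 3 and 0 without Lip replicate 1 and 3 and 1 without Lip+ISO replicate 1. Ppp1r15b, the constitutive partner of the eIF2 phosphatase, was higher in both (1.36 ± 0.17 and 1.38 ± 0.17), as was Ppp1r15a, its inducible partner GADD34 (0.66 ± 0.16 and 0.52 ± 0.16). Impact, which restrains GCN2, was higher in both as well (0.75 ± 0.10 and 1.05 ± 0.10; edgeR adjusted p = 0.02838 or less for these 3 genes). Eif2ak3, the gene of PERK, was lower with ISO (-0.89 ± 0.27, edgeR adjusted p = 0.02756). That call was lost without DMSO replicate 2 or 3 or ISO replicate 1 or 2 (adjusted p up to 0.1119). Eif2ak4, the gene of GCN2, was lower with Lip+ISO than with Lip (-0.67 ± 0.17, edgeR adjusted p = 0.01134), but not without Lip replicate 1 (-0.53, adjusted p = 0.06479). Impact was the 1 gene of the 18 called for Lip+ISO against ISO (0.36 ± 0.09, edgeR adjusted p = 0.03402). That call was lost without DMSO 1 or 2, ISO 2 or 3, Lip 2 or Lip+ISO 1 or 3, with adjusted p up to 0.1445.

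Targets of the other arms are read against the 12.3% of all tested genes called higher with ISO. Of 31 genes tied to IRE1 and XBP1, 1 was higher with ISO than with DMSO, the ER co-chaperone Dnajb9 (0.40 ± 0.09, edgeR adjusted p = 0.005873), and 0 were lower. 1 gene was lower with library totals alone, or without ISO replicate 1, Lip replicate 3 or Lip+ISO replicate 1 or 3. The median was -0.01 with ISO and 0.13 with Lip+ISO against Lip. The latter comparison called 3 higher and 1 lower (5 and 0 by RLE factors, 7 and 1 by DESeq2, 1 and 1 with library totals alone, 2 and 0 without Lip replicate 1), among them Dnajb9 (0.77 ± 0.09), its relative Dnajb11 (0.34 ± 0.07) and the translocon subunit Sec61b (0.33 ± 0.10, edgeR adjusted p = 0.02825). Sec61b was not called without Lip replicate 1 (0.25, adjusted p = 0.1043) or Lip+ISO replicate 2 (0.29, 0.09525). Lip+ISO against ISO and the interaction called 0 of the 31 by edgeR. For Lip+ISO against ISO, DESeq2 called 3 higher and edgeR with the replicate block 5 higher, with 0 lower in either. Leaving out libraries gave 0 to 2 higher and 0 to 1 lower there. In the interaction DESeq2 called 0 and the block 2, both higher.

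Of 24 ATF6 targets and ER chaperones, 2 were higher with ISO, the thioredoxin-like Txndc11 (0.46 ± 0.10) and the lectin chaperone Canx (0.38 ± 0.07), and 7 with Lip+ISO against Lip, with 0 lower in either and medians of 0.15 and 0.21. With library totals alone the counts were 2 and 4. With the replicate number fitted as a block they were 9 and 11, and 8 were higher with Lip+ISO against ISO. Without a block and without Lip+ISO replicate 1, 5 were higher with ISO, and 5 with Lip+ISO against ISO, where the unblocked fit to all libraries called 1. Hspa5, the chaperone BiP, read 930, 1201 and 1535 CPM with DMSO and 1401, 1504 and 1769 CPM with ISO, which overlap (0.35 ± 0.21, edgeR adjusted p = 0.2336). With the block Hspa5 was called higher with ISO (0.38, edgeR adjusted p = 0.00244). It read 1037, 1213 and 1599 CPM with Lip and 1686, 2124 and 2650 CPM with Lip+ISO, with no overlap (0.75 ± 0.21, edgeR adjusted p = 0.01757). That call was lost without Lip replicate 1 (adjusted p = 0.07034), Lip replicate 2 (0.06163) or Lip+ISO replicate 3 (0.06489). Its relative Hsp90b1 (GRP94) was called in the same comparison (0.69 ± 0.15) and not with ISO alone (0.42 ± 0.15, edgeR adjusted p = 0.0587). With the block it was called with ISO as well (0.44, edgeR adjusted p = 0.001117). Txndc11 (1.13 ± 0.11) and the disulfide isomerase Creld2 (0.85 ± 0.24, edgeR adjusted p = 0.01649) were also higher with Lip+ISO than with Lip. Creld2 was not called without Lip replicate 1 or Lip+ISO replicate 2 or 3 (adjusted p up to 0.06781). Txndc11, which overlaps Snn on the other strand, was also the 1 gene of the 24 higher with Lip+ISO than with ISO (0.69 ± 0.10) and the 1 called in the interaction (0.67 ± 0.15, edgeR adjusted p = 0.03999). The interaction call was lost in 9 of the 12 fits without 1 library, all but DMSO 1, Lip 3 and Lip+ISO 1, with adjusted p up to 0.1233, and with library totals alone.

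ER-associated degradation, where Herpud1 acts, had 2 of 26 genes higher and 3 lower with ISO (2 and 7 with library totals alone, 2 and 1 without DMSO replicate 3), and 4 higher and 2 lower with Lip+ISO against Lip (3 and 3 with library totals alone). Lip+ISO against ISO called 4 higher and 0 lower, with a median of 0.10 against -0.01 over all tested genes. Ube2j1, a ubiquitin-conjugating enzyme of the ER membrane, was higher in those 3 comparisons (0.82 ± 0.09, 1.33 ± 0.09 and 0.53 ± 0.09), and so was the mannosidase Man1b1 (0.51 ± 0.08, 1.19 ± 0.08 and 0.75 ± 0.08; edgeR adjusted p = 0.002038 or less for both). Man1b1 read 130 to 155 CPM with ISO and 230 to 255 CPM with Lip+ISO, and its interaction was called (0.68 ± 0.11), the 1 of the 26. Leaving out libraries gave 0 to 2 such calls (2 without ISO replicate 1). DESeq2 called 3 of the 26, and edgeR with the replicate block 5. Syvn1, the ligase HRD1 that works with HERPUD1, was higher with Lip+ISO than with ISO (1.07 ± 0.21, edgeR adjusted p = 0.007449) and than with Lip (0.71 ± 0.21, edgeR adjusted p = 0.02498). The second call was lost without Lip replicate 1 or 2 or Lip+ISO replicate 3 (0.45, the highest adjusted p at 0.1003), and Syvn1 overlaps Mrpl49. Rnf139, another ligase of the ER membrane, was lower with ISO (-0.56 ± 0.10, edgeR adjusted p = 0.001006), and it overlaps Tatdn1.

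**Figure D3:**
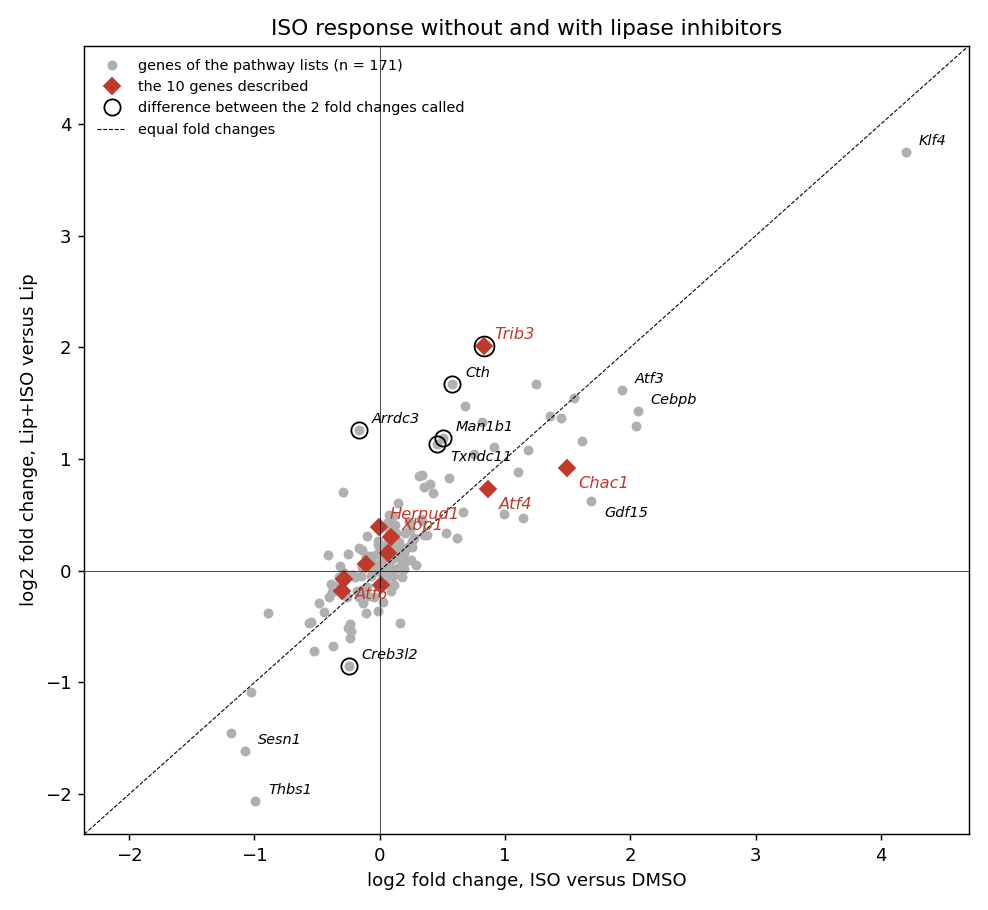
The log2 fold change with ISO versus DMSO (horizontal axis) against that with Lip+ISO versus Lip (vertical axis), 2 comparisons of the same fit that share no library. Grey points are 171 pathway genes, red diamonds the 10 genes, and black circles mark a called difference between the 2 responses. Trib3 lies above the dashed line of equal changes (0.83 and 2.01) with Cth, Arrdc3, Man1b1 and Txndc11, while Atf4 (0.86 and 0.73) and Chac1 (1.495 and 0.92) lie below it.

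Of 15 tested relatives of the 10 genes, 1 was higher and 3 lower with ISO, against 12.3% and 13.9% of all tested genes. With Lip+ISO against Lip, 2 were higher and 5 lower (1 and 9 with library totals alone), against 11.5% and 15.8%. The medians were -0.11 and -0.18. Trib1, a paralog of Trib3, was higher with ISO (1.104 ± 0.14) and with Lip+ISO against Lip (0.88 ± 0.14). Trib2 was lower in both (-0.53 ± 0.16 and -0.72 ± 0.16). Its first call was lost without any of the DMSO libraries or without ISO replicate 1 or 3 (edgeR adjusted p up to 0.08139). Neither paralog was called for Lip+ISO against ISO, where Trib3 was (Trib1 -0.17 ± 0.14, Trib2 -0.25 ± 0.16). Sesn1, a paralog of Sesn2, read 19.1 to 20.1 CPM with DMSO and 8.87 to 9.91 with ISO (-1.07 ± 0.11, edgeR adjusted p = 2.153e-05) and was lower with Lip+ISO than with Lip as well (-1.61 ± 0.11). Sesn3 was not called in either (-0.17 ± 0.12 and -0.23 ± 0.12). Creb3l2, a membrane-bound bZIP factor, was lower with Lip+ISO than with Lip (-0.85 ± 0.09) and than with ISO (-0.57 ± 0.09, edgeR adjusted p = 0.002078), the 1 call of the 15 there (2 lower without Lip+ISO replicate 1).

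Of 13 mitochondrial stress genes, 2 were higher with ISO, near the 12.3% of all tested genes. They were the chaperone Hspa9 (0.55 ± 0.07) and the co-chaperonin Hspe1 (0.24 ± 0.07, edgeR adjusted p = 0.01923). With Lip+ISO against Lip 3 were higher (11.5% of all tested genes), Hspa9 (0.83 ± 0.07), Hspe1 (0.37 ± 0.07) and Hspd1 (0.32 ± 0.07). The ISO call of Hspe1 was lost without DMSO 1 or 2 or ISO 1 or 2 (adjusted p up to 0.08651). None was lower in these fits, but 3 were with ISO and 1 with Lip+ISO against Lip when library totals alone scaled the counts, and 1 with Lip+ISO against Lip without Lip+ISO replicate 3. Lip+ISO against ISO called 0 by edgeR and 2 by DESeq2.

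The study lists 24 markers of the unfolded protein response for its brown adipocytes, 3 of which (Atf4, Ddit3 and Asns) are among the 10. In these white cells 11 were higher and 1 lower with ISO, 13 higher and 2 lower with Lip+ISO against Lip, and 1 higher and 1 lower with Lip+ISO against ISO (0 and 1 with library totals alone or without ISO replicate 2, ISO replicate 3 or Lip+ISO replicate 1). The leading names were Klf4, a factor that many stimuli induce (4.20 ± 0.26 and 3.75 ± 0.26), Cebpb, and Hspa1a, a cytosolic heat shock protein (2.04 ± 0.36 with ISO). Thbs1, which encodes a secreted thrombospondin, was lower with Lip+ISO than with Lip (-2.06 ± 0.20) and than with ISO (-1.17 ± 0.20, edgeR adjusted p = 0.002525). Dnaja4 was higher with Lip+ISO than with ISO (0.39 ± 0.09, edgeR adjusted p = 0.02149), a call lost without any of the ISO libraries or Lip+ISO replicate 1 (adjusted p up to 0.06785). In the comparison of Lip with DMSO, 0 genes of any of these lists were called by edgeR.

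**Figure D4:**
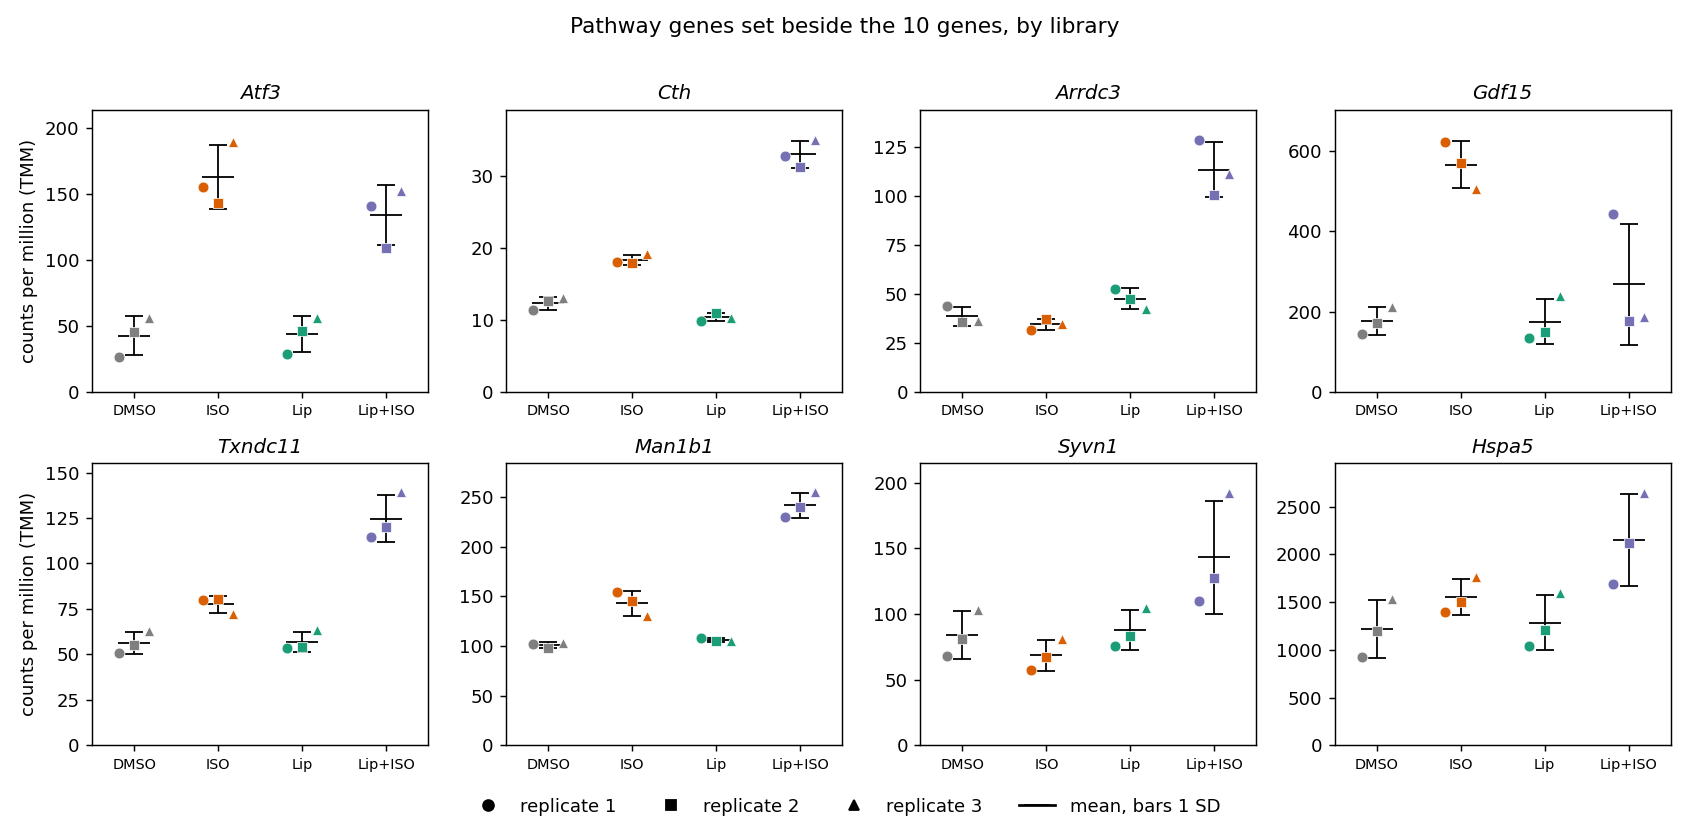
CPM (TMM-scaled) of 8 pathway genes in the 12 libraries, drawn as in the plot of the 10 genes (mean and 1 SD, n = 3, axes from 0). Atf3 and Gdf15 stand highest with ISO, and Cth, Arrdc3, Txndc11, Man1b1, Syvn1 and Hspa5 have their highest mean with Lip+ISO. Replicate 1 of Lip+ISO stands apart for Gdf15 at 443 CPM against 178 and 185.

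Over the 12 libraries, the pattern of each gene was set against 9837 genes with a mean of at least 5 CPM, by Pearson's r of log2 CPM. These points share libraries and treatments, and r is given as a description. Atf4 was most like 1700017B05Rik (0.990), Atf3 (0.98) and Cct5, a subunit of the cytosolic chaperonin (0.978). Trib3 was most like Gnai3, a G protein subunit (0.991), Clasp2, which binds microtubules (0.989), and Zfp707 (0.987), and Clasp2 read 52.4 ± 1.26 CPM with ISO and 96.6 ± 4.66 CPM with Lip+ISO. Chac1 was most like Phlda1 (0.986), the clock-related repressor Bhlhe40 (0.978) and Tgif1 (0.964). Phlda1 also spread widely with Lip+ISO (134 ± 59.2 CPM, and 160 ± 64.1 CPM for Chac1). The nearest genes to Asns were less close, Senp5 (0.882), Tbc1d8b (0.869) and Fgfr1op2 (0.863). Herpud1 was most like Sec23b, a coat protein of ER export (0.949), Aldh18a1, which makes proline (0.922), and Syvn1 (0.921). Among the 10 themselves, r was 0.860 between Atf4 and Chac1, 0.651 between Atf4 and Trib3, 0.653 between Trib3 and Chac1 and -0.0375 between Atf4 and Asns.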

How the data were processed

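Cultured mature white adipocytes were sequenced in 4 groups of 3, grouped by sample title. The authors aligned reads to mm9 with STAR 2.4.2a, counted them per RefSeq gene with HOMER (at most 1 read per position and length) and iRNA-seq, and deposited raw read counts, which start this work. Capping reads per position can lower the counts of abundant genes. In R 4.3.3, edgeR 4.0.16 (filterByExpr, 13543 genes, TMM factors 0.924 to 1.07) fitted 1 mean per group to 12 libraries. Contrasts were tested by the quasi-likelihood F-test, two-sided, with Benjamini-Hochberg adjustment over all genes tested, and the fit was tested on simulated data. Errors of log2 fold changes are SE. Replicate libraries differed beyond sampling noise (chi-square per degree of freedom 15.7 to 73.5). P-values rest on the spread among the 3 libraries within each group, estimated over all 12 libraries and moderated across genes. Without the block, that spread includes differences between replicate numbers.

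The 10 genes and the lists were chosen with earlier results of these data known. From each list, up to 3 called genes per comparison with the largest change and a mean of at least 1 CPM are named, plus stress genes and treatment genes (Hspa5, Ppp1r15a, Atf3, Eif2ak3, Dnajb9, Hsp90b1, Fgf21, Gdf15, Trib1, Sesn1, Sesn3, Pdk4, Crem, Ppargc1a). Like genes are the 3 highest r for 5 of the 10. Other scalings, no filter, DESeq2 1.42.0, only the groups compared, a replicate block, a log2 minimum of 1 and leaving out libraries were tried. Promoter windows were read from the mm9 genome at the table's starts, and for 7 of 10 genes they equal a RefSeq promoter (not Asns, Atf6 and Herpud1).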

Additional observations from a re-analysis of the deposited data

Results flagged for a closer look

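The response to ISO differed with and without inhibitors, by the interaction test of the edgeR fit, for 8 of the genes named. Genes were named partly because a comparison called them, the interaction included, so this count is not a rate. Over all tested genes, 0.901% had a called positive and 0.724% a called negative interaction. Trib3 responded more with inhibitors (1.18 ± 0.16, adjusted p = 0.002734), with 3 of 3 Lip+ISO libraries above every other library. Cth (1.09 ± 0.13, adjusted p = 0.0015), Arrdc3 (1.42 ± 0.17, 0.001328), Txndc11 (0.67 ± 0.15, 0.03999), Man1b1 (0.68 ± 0.11, 0.006715) and Crem (0.93 ± 0.14, 0.004949) had a positive interaction too. Creb3l2 (-0.61 ± 0.13, 0.03459) and Pdk4 (-2.38 ± 0.29, 0.001713) had a negative one. Creb3l2 was -0.25 with ISO and -0.85 with Lip+ISO against Lip. Creb3l2 was not called in 10 of the 12 fits that left out 1 library, all but those without ISO 2 or Lip 2 (adjusted p up to 0.1076), and Txndc11 in 9, all but those without DMSO 1, Lip 3 or Lip+ISO 1 (adjusted p up to 0.1233). With replicate 2 left out of all groups, the adjusted p of Trib3 and Cth was 0.08045 and that of Man1b1 0.2036. With replicate 3 left out, it was 0.07851 for Cth, 0.06671 for Arrdc3 and 0.1391 for Man1b1.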

How the results depend on the processing

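Limits: counts of 3 libraries a group could miss small changes, and gene counts do not separate Xbp1 forms. Atf4, Trib3 and Chac1 stayed called in both ISO comparisons in the 6 other fits and the 15 that left out libraries. A log2 minimum of 1 left 1 of 10 called in each. DESeq2 called 2 of 10 for Lip+ISO against ISO. It also called Xbp1 with Lip+ISO against Lip, and library totals alone and no filter called Atf6 with ISO, which makes 4 of 10 in each. Without 1 library or replicate number, Lip+ISO against ISO called 1 to 2 and the interaction 0 to 2 (0 without replicate 2).

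When replicate numbers entered the fit as a block, 5 of 10 were called with ISO, 5 with Lip+ISO against Lip, 3 with Lip+ISO against ISO and 2 in the interaction. The block added Atf6 (-0.28) and Sesn2 (-0.29) with ISO, Xbp1 (0.29) and Herpud1 (0.41) with Lip+ISO against Lip, Atf4 (-0.28) and Herpud1 (0.57) with Lip+ISO against ISO, and Herpud1 (0.42) in the interaction. It also called more of the lists. ATF6 targets and ER chaperones had 9 higher with ISO (2 without the block), 11 (7) with Lip+ISO against Lip and 8 (1) with Lip+ISO against ISO, and Hspa5 (0.38, edgeR adjusted p = 0.00244) and Hsp90b1 (0.44, 0.001117) were called with ISO. ATF4 targets had 15 higher and 6 lower with ISO, and 5 and 8 with Lip+ISO against ISO. IRE1 and XBP1 targets had 2 and 2 with ISO, 9 and 1 with Lip+ISO against Lip and 5 and 0 with Lip+ISO against ISO. ER-associated degradation had 3 and 7 with ISO and 8 and 0 with Lip+ISO against ISO. Nothing in the labels says that a number marks a shared batch. Of 18 pairs with the same number, 17 had deviations correlated over 0.1 (0.0373 to 0.369), and the other 36 pairs ran from -0.329 to 0.0853. Among the libraries, 12 of 12 correlated best with their own number. Deviations therefore followed the number, and the fit without a block counts this as spread. For genes called only with the block, that fit does not show that they were unchanged. The study's methods describe 3 independent experiments but do not tie them to the numbers.

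Signs that turned were those of differences near 0, none called. Other scalings, filters or tools turned, with ISO, Herpud1 (0.0041 with RLE, 0.0014 with DESeq2) and Ddit3 (-0.023 with library totals alone, -0.006388 with no filter), Asns with Lip+ISO against Lip (-0.058 with library totals) and Ern1 with Lip against DMSO (0.025 with library totals). The cause was not tested. Leaving out libraries gave, with ISO, Ddit3 -0.21 to 0.18, Ern1 -0.16 to 0.19 and Herpud1 -0.19 to 0.11. With Lip+ISO against Lip, Atf6 ran from -0.13 to 0.0032 and Sesn2 from -0.34 to 0.022. With Lip against DMSO, Ddit3 ran from -0.29 to 0.064, Ern1 from -0.17 to 0.085, Herpud1 from -0.0091 to 0.27 and Trib3 from -0.026 to 0.12. With Lip+ISO against ISO, Ern1 ran from -0.054 to 0.30, Sesn2 from -0.21 to 0.093 and Xbp1 from -0.048 to 0.27. In the interaction, Ddit3 ran from -0.32 to 0.077, Ern1 from -0.042 to 0.31 and Sesn2 from -0.041 to 0.33.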
